A study of Mus musculus with 26 samples.

Results

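The genes described here are 9 members of the mouse machinery for fatty acid uptake and triglyceride assembly. They are Lpl, Fabp3 and Fabp5 for uptake and transport, and Gpam, Gpat4, Agpat1, Lpin1, Dgat1 and Dgat2 for assembly. Members were taken by symbol: every probe set that the array annotation assigns to 1 of these genes and to no other gene was used. This gave 18 probe sets, 2 for each gene, of 45037 probe sets and 18193 genes on the array.

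RNA came from the inguinal mammary gland, with 1 Affymetrix array for each of 26 mice. Advanced Intercross Line (AIL) mice, the 14th generation of a cross of CBA/CaH and QSi5, were sampled at lactation day 9 (10 arrays, 5 with the code AQ and 5 with the code AC in their labels). The labels do not say what AQ and AC stand for. QSi5 and CBA/CaH mice were sampled at lactation day 9 (3 arrays each) and at pregnancy day 12 (5 arrays each). No treatment and no engineered allele is named in the labels. The inguinal gland lies in a fat pad, so an array measures epithelium together with fat, vessels, stroma and, where it was taken along, muscle.

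Milk fat is mostly triglyceride, made by the secretory epithelium from fatty acids that arrive in the blood or are made in the cell. Lipoprotein lipase releases fatty acids from circulating triglyceride at the capillary wall, and binding proteins carry them in the cell. In the glycerol 3-phosphate pathway a first acyltransferase makes lysophosphatidic acid, a second makes phosphatidic acid, a lipin phosphatase removes the phosphate to leave diacylglycerol, and a diacylglycerol acyltransferase adds the last acyl chain. Adipocytes run the same pathway for storage.

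All values are log2 expression levels, so that a difference of 1 is a doubling, and errors are SD over mice unless given as SE of a difference. A gene's leading probe set is the one with the higher mean over all arrays. Differences were tested with limma, and a probe set was called at a Benjamini-Hochberg adjusted p under 0.05 over all 45037 probe sets. The number of arrays per group limits the precision. The p-values rest on the spread between single mice, pooled over the groups fitted together. Among epithelial keratins, Krt8 was at the 98.8th percentile of mean level over all probe sets, Krt5 at 91.4, Krt14 at 88, Krt7 at 75.6 and Krt17 at 55.5. On the arrays as a whole, 6 stood apart by a tissue marker or RNA measure. They included CBA/CaH pregnancy array 5 (brown fat markers) and QSi5 pregnancy arrays 3 and 5 (skeletal muscle markers) and 4 (RNA degradation measure). The others were QSi5 lactation array 2 (B and plasma cell markers) and AIL AC array 1 (skeletal muscle markers). The rule was a value more than 1 above the group median. It used brown adipocyte, skeletal muscle and B and plasma cell markers and the RNA degradation measure only. CBA/CaH pregnancy arrays 4 and 2 were kept, although their white adipocyte markers were the highest and lowest of their group (2.52 and -1.14).

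On the values as deposited, the 9 genes did not move together between pregnancy day 12 and lactation day 9. By leading probe set, Lpl, Fabp3, Agpat1 and Lpin1 were called higher at lactation in both strains, and Gpam, Dgat2 and Fabp5 lower in both. The falls depended on scaling: after quantile normalization 0 of all 18 probe sets were called lower in QSi5 and 1 in CBA/CaH. Gpat4 was called in neither strain, and Dgat1 was called lower in CBA/CaH and not called in QSi5, where its difference was -0.03. In QSi5 4 of 9 leading probe sets were called higher and 3 lower at lactation, beside 33% and 32.7% of all genes. In CBA/CaH 4 were higher and 4 lower, beside 30.4% and 29.5%. Of all 18 probe sets, 10 were higher and 3 lower in QSi5 (35.9% and 23.1% of all probe sets) and 9 higher and 4 lower in CBA/CaH (32.3% and 20.7%). Lactation and pregnancy arrays did not overlap for 13 of 18 in QSi5 and 9 of 18 in CBA/CaH, against 50.6% and 52.6% of all probe sets. The members' median difference was 0.51 in QSi5 and 0.60 in CBA/CaH, where that of all probe sets was 0.19 and 0.17.

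As deposited, the 95th percentile of an array averaged 9.01 in lactating and 9.76 in pregnant QSi5 glands, and 9.03 and 9.68 in CBA/CaH. It averaged 9.34 in AIL AQ and 9.38 in AIL AC glands, while array medians lay from 5.0 to 5.3. The members' leading probe sets lay at the 89.2th (Agpat1) to 99.9th (Lpl) percentile of mean level. The split between higher and lower depended on how the arrays were scaled. After a further quantile normalization it was 12 higher and 0 lower in QSi5 and 10 and 1 in CBA/CaH, after cyclic loess 11 higher and 0 lower in QSi5 and 10 and 0 in CBA/CaH, and with equal array medians 7 and 4 in QSi5 and 6 and 5 in CBA/CaH. Equal medians moved the median of all probe sets to -0.03 in QSi5 and -8.3e-05 in CBA/CaH. By leading probe set, Lpl and Fabp3 were called higher under every scaling in both strains. By leading probe set too, scaling ended calls of Gpam, Dgat1, Dgat2 and Fabp5 as lower and of Lpin1 in CBA/CaH and Agpat1 in QSi5 as higher, and it called Gpat4 as higher.

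**Figure D1:**
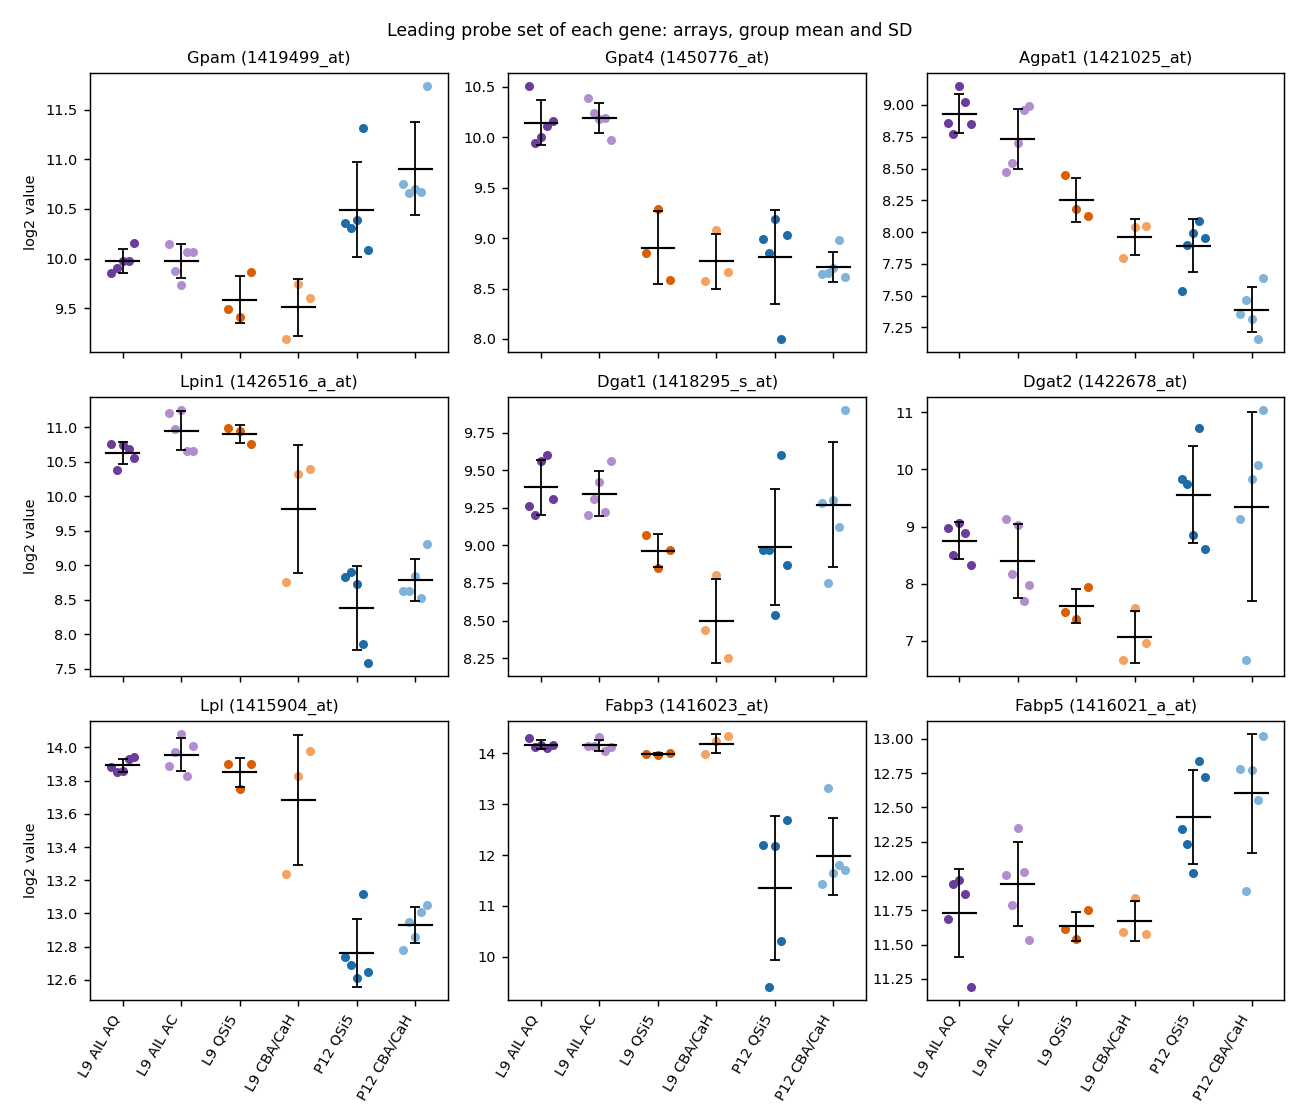
Log2 level of the leading probe set of each of the 9 genes (y axis) in every array by group (x axis), with a point for each mouse, a bar for the group mean and whiskers for the SD. Fabp3 and Lpl stand higher in all lactation arrays than in all pregnancy arrays of the same strain, while Gpat4 stands higher in all 10 AIL arrays (9.94 to 10.51) than in the 6 parental lactation arrays (8.57 to 9.29).

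Lpl codes for lipoprotein lipase, which hydrolyses triglyceride in chylomicrons and very low density lipoproteins. Its leading probe set 1415904_at read 13.90, 13.75 and 13.90 in lactating QSi5 glands, against 12.74, 12.69, 12.61, 13.12 and 12.65 in pregnant QSi5 glands. In CBA/CaH it read 13.24, 13.83 and 13.98 at lactation, against 12.78, 12.95, 12.86, 13.01 and 13.05 at pregnancy. Every lactating gland was higher than every pregnant gland of its strain, although CBA/CaH lactation array 1 lay well below the other two. The rise was 1.09 in QSi5 (SE 0.16, 2.12-fold, adjusted p = 4.36e-05) and 0.75 in CBA/CaH (SE 0.16, 1.69-fold, adjusted p = 0.00116). Pregnancy levels were already near the top of the table, whose highest value was 15.13. The other probe set, 1431056_a_at, rose by 2.52 in QSi5 (SE 0.60, 5.75-fold, adjusted p = 0.00225). It read 11.40, 11.28 and 11.41 in lactating QSi5 glands, against 9.98, 9.91, 9.59, 8.20 and 6.52 in pregnant ones. The lowest of these pregnancy values, 8.20 and 6.52, came from arrays 4 and 5, both among those that stood apart. With the outlying arrays left out the rise was 1.46 (adjusted p = 0.00825). In CBA/CaH the difference of 1431056_a_at was 1.05 (SE 0.60, adjusted p = 0.15), with 10.82, 11.17 and 11.13 at lactation, against 9.55, 9.77, 9.58, 11.02 and 10.02 at pregnancy. It was called higher there after quantile normalization (1.57, adjusted p = 0.0317) and cyclic loess (1.63, adjusted p = 0.0388), and with the outlying arrays left out (1.06, adjusted p = 0.00927).

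Fabp3, the heart-type fatty acid binding protein and an abundant cytosolic carrier of the lactating gland, had the greatest rise of the leading probe sets in both strains on the values as deposited. Probe set 1416023_at read 13.99, 13.96 and 14.01 in lactating QSi5 glands, against 12.20, 9.40, 12.17, 10.30 and 12.68 in pregnant ones. It read 13.98, 14.24 and 14.35 in lactating CBA/CaH glands, against 11.43, 13.31, 11.64, 11.80 and 11.71 in pregnant ones. Lactating glands lay close together, while the pregnant QSi5 glands spread widely (SD 1.42, against 0.03 at lactation), and the stages did not overlap in either strain. The rise was 2.64 in QSi5 (SE 0.60, 6.22-fold, adjusted p = 0.00168) and 2.21 in CBA/CaH (SE 0.60, 4.63-fold, adjusted p = 0.00653). The dimmer probe set 1444844_at rose by 1.80 in QSi5 (adjusted p = 0.000116) and by 1.52 in CBA/CaH (adjusted p = 0.000629).

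Fabp5, the epidermal-type binding protein that is also found in fat and macrophages, went the other way. Probe set 1416021_a_at read 11.61, 11.54 and 11.75 in lactating QSi5 glands, against 12.34, 12.23, 12.02, 12.84 and 12.72 in pregnant ones. It read 11.59, 11.84 and 11.58 in lactating CBA/CaH glands, against 12.78, 11.89, 12.77, 12.55 and 13.02 in pregnant ones. All lactating glands were lower than all pregnant ones of their strain, with pregnant CBA/CaH array 2 only just above. Fabp5 fell by 0.80 in QSi5 (SE 0.23, 1.74-fold, adjusted p = 0.00697) and by 0.93 in CBA/CaH (SE 0.23, 1.91-fold, adjusted p = 0.00305). In QSi5 the fall was -0.49 after quantile normalization (adjusted p = 0.112), -0.27 after cyclic loess (adjusted p = 0.446) and -0.60 (adjusted p = 0.0692) with the outlying arrays left out, and in CBA/CaH it was -0.43 after cyclic loess (adjusted p = 0.23). Probe set 1416022_at had differences of -0.60 in QSi5 (adjusted p = 0.102) and -0.68 in CBA/CaH (adjusted p = 0.0702), neither called, and with equal array medians it was called lower in both (-0.82, adjusted p = 0.0367, and -0.86, adjusted p = 0.0335).

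**Figure D2:**
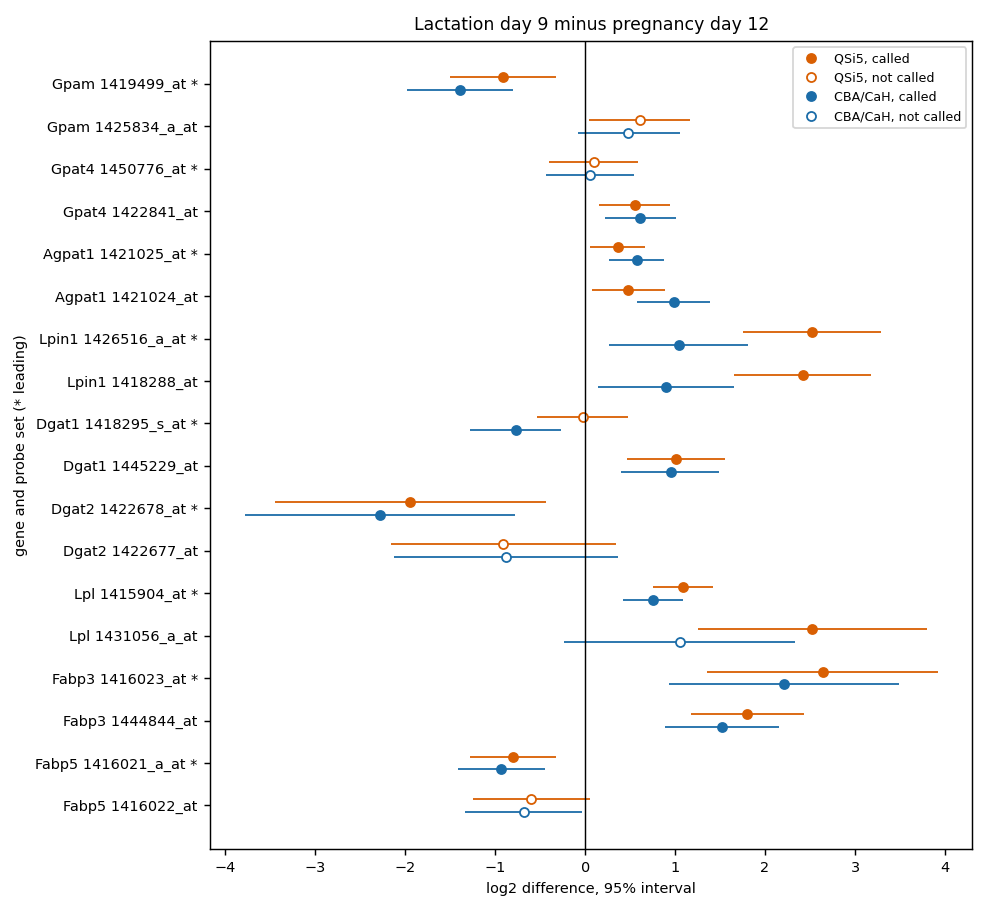
Difference between lactation day 9 and pregnancy day 12 (x axis, log2, with 95% confidence intervals) for the 18 probe sets of the 9 genes (y axis) in QSi5 and CBA/CaH, on the values as deposited. Both probe sets of Fabp3 and of Lpin1 lie right of 0 in both strains and the leading probe sets of Gpam, Dgat2 and Fabp5 lie left of 0, while Dgat1 1418295_s_at, at -0.03 in QSi5, turns to 0.74 there after quantile normalization.

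The first acyl chain is added by Gpam, the mitochondrial glycerol 3-phosphate acyltransferase, or by Gpat4, an enzyme of the endoplasmic reticulum. Loss of Gpat4 in mice lowers the triglyceride of milk. Gpam 1419499_at read 9.49, 9.41 and 9.86 in lactating QSi5 glands, against 10.36, 10.31, 10.39, 11.32 and 10.09 in pregnant ones. It read 9.19, 9.74 and 9.60 in lactating CBA/CaH glands, against 10.75, 10.66, 10.70, 10.67 and 11.74 in pregnant ones. The stages did not overlap, and the highest pregnant gland of each strain, 11.32 in QSi5 array 4 and 11.74 in CBA/CaH array 5, belongs to an array that stood apart. Gpam fell by 0.91 in QSi5 (SE 0.28, 1.88-fold, adjusted p = 0.0112) and by 1.39 in CBA/CaH (SE 0.28, 2.63-fold, adjusted p = 0.000793). After quantile normalization the differences were -0.20 in QSi5 (adjusted p = 0.637) and -0.77 in CBA/CaH (adjusted p = 0.0601), and after cyclic loess -0.23 (adjusted p = 0.616) and -0.78 (adjusted p = 0.0788). The 2 Gpam probe sets disagreed: 1425834_a_at averaged 6.16 in lactating and 5.56 in pregnant QSi5 glands (difference 0.61, adjusted p = 0.0599) and 6.01 in lactating and 5.53 in pregnant CBA/CaH glands (difference 0.48, adjusted p = 0.134). In QSi5 that probe set was called higher after quantile normalization (0.65, adjusted p = 0.026) and cyclic loess (0.67, adjusted p = 0.0436). With the mean of the 2 probe sets, the CBA/CaH call of Gpam as lower was lost.

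Gpat4 1450776_at read 8.85, 9.29 and 8.58 in lactating QSi5 glands, against 8.99, 8.85, 9.19, 8.0 and 9.03 in pregnant ones. It read 8.57, 9.08 and 8.66 in lactating CBA/CaH glands, against 8.64, 8.65, 8.70, 8.98 and 8.61 in pregnant ones. The stages overlapped fully, and the difference was 0.10 in QSi5 (adjusted p = 0.737) and 0.05 in CBA/CaH (SE 0.23, adjusted p = 0.868). Quantile normalization gave 0.87 (adjusted p = 0.00264) and 0.70 (adjusted p = 0.0122), and cyclic loess 0.82 (adjusted p = 0.00371) and 0.69 (adjusted p = 0.0128), so that Gpat4 was called higher at lactation under those scalings. The dim probe set 1422841_at, whose values stayed between 3.81 and 5.08, was called higher in QSi5 (0.55, adjusted p = 0.0205) and in CBA/CaH (0.61, adjusted p = 0.0124), calls that ended without lactating QSi5 array 1 (0.31, adjusted p = 0.166) and without lactating CBA/CaH array 2 (0.51, adjusted p = 0.0686). They also ended under quantile normalization (0.24, adjusted p = 0.318, in QSi5 and 0.35, adjusted p = 0.147, in CBA/CaH), cyclic loess (0.15 and 0.28) and equal array medians (0.32 and 0.44).

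Agpat1 adds the second acyl chain. Probe set 1421025_at read 8.45, 8.18 and 8.13 in lactating QSi5 glands, against 7.54, 7.90, 7.99, 8.09 and 7.95 in pregnant ones. It read 7.80, 8.04 and 8.05 in lactating CBA/CaH glands, against 7.36, 7.47, 7.32, 7.16 and 7.64 in pregnant ones. No lactating gland overlapped a pregnant gland of its strain, but in QSi5 the nearest values, 8.13 and 8.09, were close. The rise was 0.58 in CBA/CaH (SE 0.14, 1.49-fold, adjusted p = 0.00369) and 0.36 in QSi5 (SE 0.14, 1.28-fold, adjusted p = 0.0425). The QSi5 call was lost with equal array medians (0.14, adjusted p = 0.428) and in 5 of the 8 fits without 1 QSi5 array, in which the difference lay between 0.26 and 0.39. Probe set 1421024_at rose by 0.48 in QSi5 (adjusted p = 0.0408) and by 0.99 in CBA/CaH (adjusted p = 0.000648), and its QSi5 call likewise ended in 5 of the 8 such fits, at 0.35 to 0.51, and with equal array medians (0.26, adjusted p = 0.306).

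Lipin 1, made from Lpin1, is the phosphatidic acid phosphatase of the pathway and also a transcriptional coactivator in liver and fat. Probe set 1426516_a_at read 10.99, 10.95 and 10.75 in lactating QSi5 glands, against 8.83, 8.90, 8.72, 7.86 and 7.58 in pregnant ones. It read 8.75, 10.32 and 10.39 in lactating CBA/CaH glands, against 8.62, 8.63, 8.84, 8.53 and 9.30 in pregnant ones. The QSi5 stages were widely separated, while lactating CBA/CaH array 1 lay within the pregnancy range and the other two CBA/CaH glands above it. Lpin1 rose by 2.52 in QSi5 (SE 0.36, 5.73-fold, adjusted p = 3.85e-05). In CBA/CaH it rose by 1.04 (SE 0.36, 2.05-fold, adjusted p = 0.0253), or by 1.57 without lactation array 1. The CBA/CaH call was lost without lactation array 2 (0.79, adjusted p = 0.13), without lactation array 3 (0.75, adjusted p = 0.143) and without pregnancy array 4 (0.97, adjusted p = 0.0503), and with equal array medians (0.86, adjusted p = 0.0625). Probe set 1418288_at gave 2.42 in QSi5 (adjusted p = 4.71e-05) and 0.90 in CBA/CaH (adjusted p = 0.045), where leaving out any of 6 single arrays ended the call, at 0.63 to 0.89, as did equal array medians (0.72, adjusted p = 0.119).

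The last step is shared by Dgat1 and Dgat2, unrelated enzymes for the same reaction, of which Dgat1 is needed for lactation in mice. Dgat1 1418295_s_at read 9.07, 8.85 and 8.97 in lactating QSi5 glands, against 8.97, 8.97, 8.54, 9.60 and 8.87 in pregnant ones. It read 8.44, 8.80 and 8.25 in lactating CBA/CaH glands, against 9.28, 8.75, 9.30, 9.12 and 9.90 in pregnant ones. The QSi5 stages overlapped throughout, and in CBA/CaH only lactation array 2 and pregnancy array 2 did. The difference was -0.03 in QSi5 (95% confidence interval -0.53 to 0.48, adjusted p = 0.927) and -0.77 in CBA/CaH (SE 0.24, 1.71-fold, adjusted p = 0.013). These depended on scaling: after quantile normalization Dgat1 was 0.74 higher at lactation in QSi5 (adjusted p = 0.0411) and the CBA/CaH difference was -0.12 (adjusted p = 0.768). The CBA/CaH call was also lost without lactation array 3 (-0.65, adjusted p = 0.0685). The dimmer Dgat1 probe set 1445229_at disagreed, with a rise of 1.01 in QSi5 (adjusted p = 0.00341) and 0.95 in CBA/CaH (adjusted p = 0.00609).

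Dgat2, the enzyme that dominates triglyceride storage in fat and liver, fell. Probe set 1422678_at read 7.50, 7.38 and 7.95 in lactating QSi5 glands, against 9.84, 9.75, 8.86, 10.73 and 8.61 in pregnant ones. It read 6.67, 7.57 and 6.97 in lactating CBA/CaH glands, against 9.13, 6.67, 9.84, 10.07 and 11.04 in pregnant ones. The QSi5 stages did not overlap, and in CBA/CaH pregnancy array 2 read as low as the lowest lactating gland. Dgat2 fell by 1.95 in QSi5 (SE 0.71, 3.85-fold, adjusted p = 0.0272) and by 2.28 in CBA/CaH (SE 0.71, 4.86-fold, adjusted p = 0.0135), and without CBA/CaH pregnancy array 2 the CBA/CaH fall was -2.95. Quantile normalization gave -1.22 (adjusted p = 0.172) in QSi5 and -1.77 (adjusted p = 0.0554) in CBA/CaH. The call was also lost in QSi5 with the outlying arrays left out (-2.06, adjusted p = 0.0519), without pregnancy array 4 (-1.65, adjusted p = 0.0518), without lactation array 1 (-1.89, adjusted p = 0.074) and without lactation array 2 (-1.83, adjusted p = 0.0814), and in CBA/CaH without lactation array 1 (-2.08, adjusted p = 0.0526). The differences of 1422677_at were -0.91 in QSi5 (adjusted p = 0.191) and -0.88 in CBA/CaH (adjusted p = 0.216), not called.

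White adipocyte markers moved with Dgat2 across arrays. Of 9 measured markers, 4 were called lower at lactation in QSi5 and 8 in CBA/CaH, where 32.7% and 29.5% of all genes were. Each array's median deviation of these markers from their mean over all 26 arrays ran from -1.26 to -0.60 in lactating QSi5 glands and from 0.07 to 0.94 in pregnant ones. In CBA/CaH it ran from -1.15 to -0.70 at lactation and from -1.14 to 2.52 at pregnancy. The pregnant CBA/CaH gland at -1.14 was array 2, the one with Dgat2 at 6.67 and with Fabp3 at 13.31. The gene of the fat hormone, Adipoq, averaged 9.20 in lactating and 10.98 in pregnant QSi5 glands, and 9.15 in lactating and 11.33 in pregnant CBA/CaH glands. Luminal epithelial markers were lower at lactation too, 8 of 9 in each strain, with Krt8 at 9.66 in lactating and 12.96 in pregnant QSi5 glands. Some other lists fell as well: 5 of 6 fibroblast and 6 of 8 endothelial markers were called lower in each strain, 4 of 8 macrophage markers in each, and of 8 myoepithelial markers 7 in QSi5 and 5 in CBA/CaH. B and plasma cell markers went the other way, with 7 of 7 called higher in QSi5, 2 of 7 in CBA/CaH and 0 lower in either. Of 7 brown adipocyte markers 2 were higher and 0 lower in QSi5, and 1 higher and 2 lower in CBA/CaH. Of 12 skeletal muscle markers 1 was higher and 0 lower in each strain. Over all genes 33% were higher in QSi5 and 30.4% in CBA/CaH. These marker counts are on the values as deposited only. In bulk tissue, fewer cells of a type and less RNA per cell cannot be told apart, and the part of tissue make-up in the differences of Dgat2 and the other genes was not tested.

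**Figure D3:**
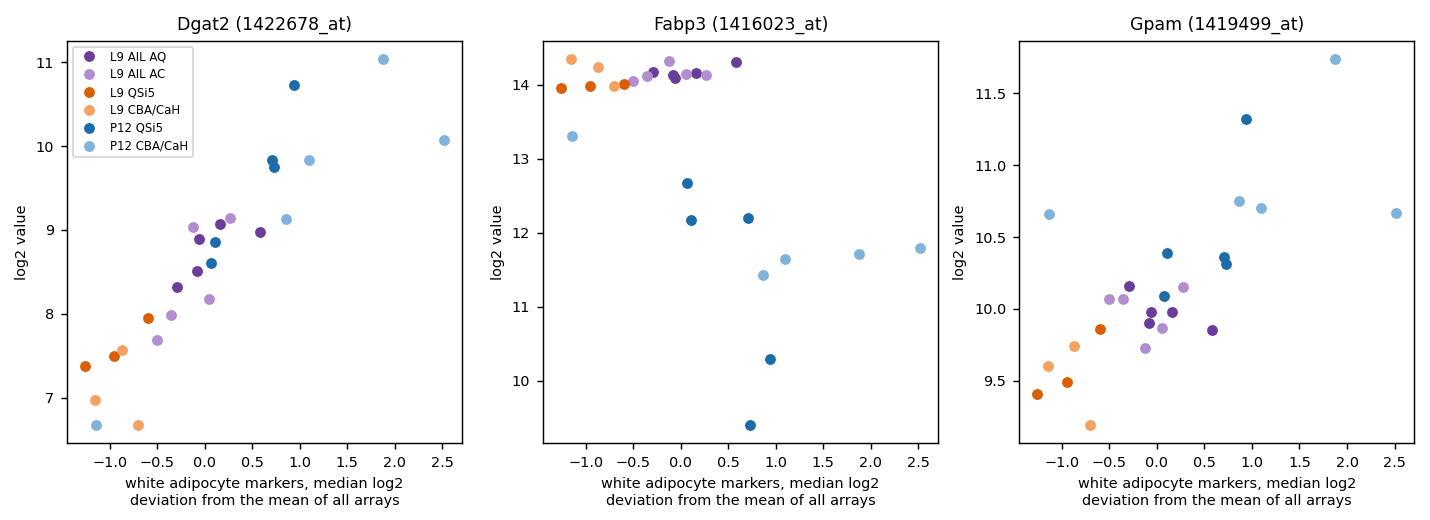
Log2 level of Dgat2 1422678_at, Fabp3 1416023_at and Gpam 1419499_at (y axis) against the median deviation of 9 white adipocyte markers (x axis, log2) in the 26 arrays, coloured by group. CBA/CaH pregnancy array 2, at -1.14 on the x axis, has a Dgat2 level of 6.67, and the other pregnant CBA/CaH glands read 9.13 to 11.04.

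RefSeq promoters on build GRCm38.p6 were matched for Gpam, Agpat1, Lpin1 and Fabp3. Gpat4, Dgat1, Dgat2, Lpl and Fabp5 are named only. The windows shown hold the 250 bases before the start. They are shown because these are the members with an entry in the table used. By leading probe set, on the values as deposited, Gpam was called lower at lactation, and Agpat1, Lpin1 and Fabp3 higher. Each is written 5′ to 3′ on the gene's strand, and capitals mark a match to 1 of 6 motifs searched on both strands. These were the STAT5 motif with the letters TTCNNNGAA, the sterol regulatory element with the letters TCACNCCAC, the E-box with CACGTG, the CCAAT box, the GC box with GGGCGG and the TATA box with TATAAA. STAT5 carries the prolactin signal in mammary epithelium, and the sterol regulatory element is bound by the SREBP factors.
Gpam start 1, chr19:55127239-55127488, minus strand: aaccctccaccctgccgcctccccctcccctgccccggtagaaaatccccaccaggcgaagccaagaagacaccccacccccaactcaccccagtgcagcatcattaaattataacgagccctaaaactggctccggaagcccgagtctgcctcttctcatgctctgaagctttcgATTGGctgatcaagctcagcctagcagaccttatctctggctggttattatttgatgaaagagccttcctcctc
Gpam start 2, chr19:55099478-55099727, minus strand: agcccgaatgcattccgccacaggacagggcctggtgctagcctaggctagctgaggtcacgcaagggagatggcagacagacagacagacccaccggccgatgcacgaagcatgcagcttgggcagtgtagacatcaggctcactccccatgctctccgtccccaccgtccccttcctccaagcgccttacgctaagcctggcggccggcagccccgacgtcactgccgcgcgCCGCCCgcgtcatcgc
Agpat1 start 1, chr17:34605611-34605860, plus strand: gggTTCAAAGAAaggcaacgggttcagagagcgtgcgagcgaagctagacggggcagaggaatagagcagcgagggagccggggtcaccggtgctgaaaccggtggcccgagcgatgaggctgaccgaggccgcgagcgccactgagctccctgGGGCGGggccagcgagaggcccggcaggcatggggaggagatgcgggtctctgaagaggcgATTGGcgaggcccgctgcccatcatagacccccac
Lpin1, chr12:16610967-16611216, minus strand: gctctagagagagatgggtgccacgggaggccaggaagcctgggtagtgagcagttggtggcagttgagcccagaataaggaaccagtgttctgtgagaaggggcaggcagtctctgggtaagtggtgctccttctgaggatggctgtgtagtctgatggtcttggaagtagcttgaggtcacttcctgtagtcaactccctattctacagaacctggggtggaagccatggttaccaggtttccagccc
Fabp3, chr4:130308488-130308737, plus strand: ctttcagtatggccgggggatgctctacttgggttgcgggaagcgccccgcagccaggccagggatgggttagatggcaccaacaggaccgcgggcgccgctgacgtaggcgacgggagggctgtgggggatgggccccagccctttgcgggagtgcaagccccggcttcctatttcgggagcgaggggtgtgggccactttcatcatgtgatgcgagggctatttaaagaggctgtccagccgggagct

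The first Gpam start held a CCAAT match 74 bases before the start, printed as its reverse complement ATTGG, and the second a GC box 16 bases before it. The window shown for Agpat1, that of its first start, held a STAT5 match 247 bases before the start, a GC box at 96 and a CCAAT match at 35. The second Agpat1 start, whose window is chr17:34608764-34609013 on the plus strand, held a GC box 15 bases before it and none of the other motifs. Neither Lpin1 nor Fabp3 held any of the 6 motifs in these letters. Among 32851 mouse promoters of this length, 7.02% hold the STAT5 motif, 1.05% the sterol regulatory element, 6.02% the E-box, 33.8% CCAAT, 32.7% the GC box and 12.4% TATAAA. The matches describe the letters of these windows.

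The wider pathway was described with 66 other genes in 6 lists, by leading probe set. On the values as deposited, 13 were higher and 23 lower at lactation in QSi5, and 10 were higher and 27 lower in CBA/CaH. The median difference was -0.41 in each strain, against 0.04 in QSi5 and 0.05 in CBA/CaH over all genes. The counts of the 66 genes and of each list were not recomputed under other scalings. Over all genes 33% were higher and 32.7% lower in QSi5, and 30.4% higher and 29.5% lower in CBA/CaH, and each list's count below stands beside those shares. Among 14 other glycerolipid acyltransferases and phosphatases, 1 was higher and 7 were lower in QSi5, and 2 were higher and 8 lower in CBA/CaH. Gpat3, another endoplasmic reticulum enzyme for the first step, averaged 4.86 ± 0.36 in lactating and 7.16 ± 0.40 in pregnant QSi5 glands (difference -2.30, adjusted p = 0.00161). In CBA/CaH it averaged 4.88 ± 0.20 at lactation and 8.02 ± 1.3 at pregnancy (-3.14, adjusted p = 0.000189). Agpat2, the adipocyte enzyme for the second step, had differences of -1.34 in QSi5 (adjusted p = 0.0823) and -2.15 in CBA/CaH (adjusted p = 0.011), opposite in sign to Agpat1. The Agpat2 call in CBA/CaH was lost under quantile normalization (-1.52, adjusted p = 0.0856) and cyclic loess (-1.51, adjusted p = 0.0897), and in QSi5 the gene was called with the outlying arrays left out (-1.64, adjusted p = 0.0259). Agpat5 and Mogat2 were called in neither strain. The phosphatase Plpp3 fell by 1.64 in QSi5 (adjusted p = 0.000161) and by 1.26 in CBA/CaH (adjusted p = 0.00166), where the Plpp3 difference was -0.62 under quantile normalization and cyclic loess (adjusted p = 0.0682 and 0.0674).

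Among 15 other fatty acid transporters and binding proteins, 7 were higher and 3 lower in QSi5, and 6 were higher and 4 lower in CBA/CaH. Cd36, the fatty acid translocase of the milk fat globule membrane, rose beside Lpl and Fabp3, with 12.28 ± 0.10 in lactating and 10.54 ± 0.43 in pregnant QSi5 glands (1.73, adjusted p = 8.73e-05). In CBA/CaH it averaged 12.09 ± 0.04 at lactation and 10.86 ± 0.55 at pregnancy (1.22, adjusted p = 0.00181). The transport protein gene Slc27a3 rose by 1.70 in QSi5 (adjusted p = 0.000229) and 2.34 in CBA/CaH (adjusted p = 2.05e-05), while Slc27a1 fell by 1.76 (adjusted p = 1.96e-06) and by 2.08 (adjusted p = 5.59e-07). Fabp4, the adipocyte binding protein, fell by 2.04 in QSi5 (adjusted p = 2.64e-05) and by 1.62 in CBA/CaH (adjusted p = 0.000261). Fabp6 had differences of 0.07 in QSi5 and -0.14 in CBA/CaH, neither called.

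Of 10 partners of lipoprotein lipase and lipoprotein receptors, 1 was higher and 3 lower in QSi5, and 1 higher and 4 lower in CBA/CaH. Angptl4, an inhibitor of lipoprotein lipase that is induced by fasting, fell by 3.37 in QSi5 (SE 0.85, adjusted p = 0.00341), a call that ended with the outlying arrays left out (-3.22, adjusted p = 0.0561). In CBA/CaH its difference was -2.70 (SE 0.85, adjusted p = 0.0151), with lactating glands at 11.27, 5.63 and 6.19, and the call rested on glands 2 and 3: without array 2 it was -1.66 (adjusted p = 0.123), without array 3 it was -1.94 (adjusted p = 0.105), and without array 1 it was -4.48. Cyclic loess also ended that Angptl4 call (-2.11, adjusted p = 0.0575). Gpihbp1, which holds the lipase on the capillary wall, had differences of -0.80 in QSi5 (adjusted p = 0.0591) and -0.43 in CBA/CaH (adjusted p = 0.309). Apoc2, the activator of the lipase, rose by 0.53 in QSi5 (adjusted p = 0.0157) and 0.57 in CBA/CaH (adjusted p = 0.0122). Both Apoc2 calls were lost under quantile normalization (0.21, adjusted p = 0.317, and 0.31, adjusted p = 0.158), cyclic loess (0.16 and 0.25) and equal array medians (0.31 and 0.39). They were also lost without QSi5 lactation array 2 (adjusted p = 0.0539) and without CBA/CaH lactation array 1 (adjusted p = 0.0657) or 2 (adjusted p = 0.051). Lrp1, a lipoprotein receptor, fell by 2.22 in QSi5 (adjusted p = 0.000429) and by 1.75 in CBA/CaH (adjusted p = 0.00313).

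Of 8 acyl-CoA synthetases and acyl-CoA binding proteins, 2 were higher and 4 lower in QSi5, and 1 was higher and 3 lower in CBA/CaH. Acsl3 had the greatest fall of the 66 genes in CBA/CaH, with 4.83 ± 0.24 in lactating and 8.56 ± 0.35 in pregnant CBA/CaH glands (-3.73, adjusted p = 2.86e-08), and it fell by 3.02 in QSi5 (adjusted p = 1.37e-07). Of 5 genes of glycerol 3-phosphate supply, 0 were higher and 1 lower in QSi5 and 0 higher and 3 lower in CBA/CaH. Gpd1l, a glycerol 3-phosphate dehydrogenase, fell by 1.40 in QSi5 (adjusted p = 7.68e-05) and by 1.78 in CBA/CaH (adjusted p = 1.28e-05). Among 14 regulators 2 were higher and 5 lower in QSi5, and 0 were higher and 5 lower in CBA/CaH. The factor Cebpa fell by 2.79 in QSi5 (adjusted p = 1.37e-07) and it fell by 2.99 in CBA/CaH (adjusted p = 1.07e-07). Srebf1, which drives lipogenic genes, had differences of -1.27 in QSi5 (adjusted p = 0.00503) and -1.15 in CBA/CaH (adjusted p = 0.0107), calls that were lost under quantile normalization and cyclic loess, and in CBA/CaH without lactation array 1 (-0.50, adjusted p = 0.0579). Pparg, the adipocyte regulator, had differences of -0.98 in QSi5 (adjusted p = 0.0727) and -1.26 in CBA/CaH (adjusted p = 0.0281). The Pparg call in CBA/CaH was lost with the outlying arrays left out (-0.90, adjusted p = 0.0573), under quantile normalization (-0.91, adjusted p = 0.0994) and cyclic loess (-0.89, adjusted p = 0.149), and without any 1 of 5 arrays (pregnancy 4 or 5, or lactation 1, 2 or 3), where the greatest adjusted p was 0.0826. Thrsp, a lipogenic protein of fat and mammary gland, was not called (0.38 in QSi5, -0.15 in CBA/CaH).

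**Figure D4:**
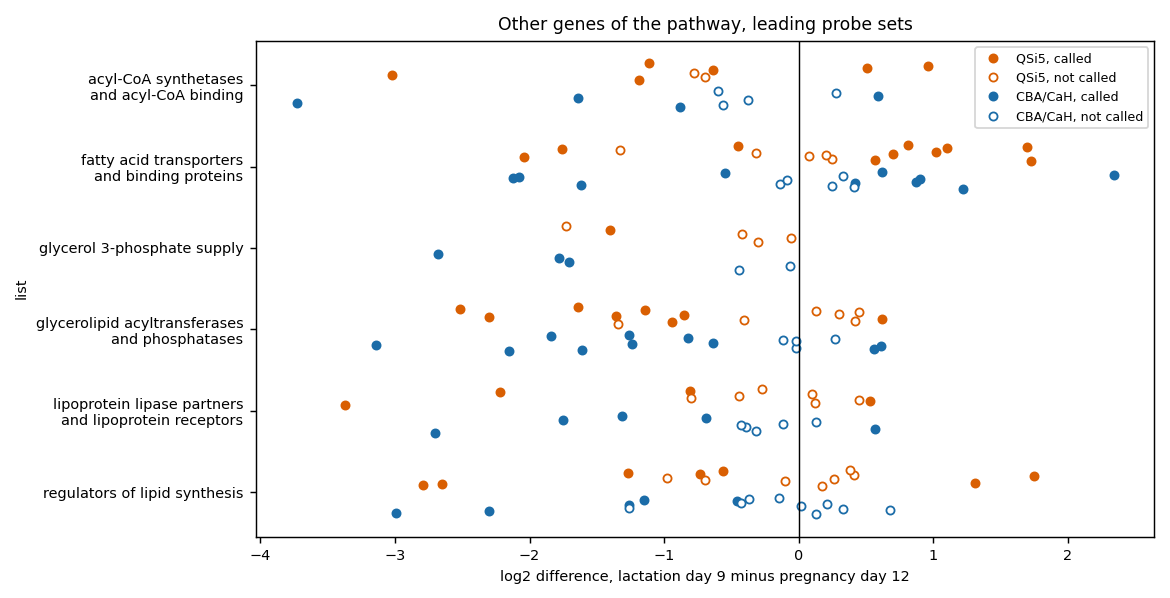
Difference between lactation day 9 and pregnancy day 12 (x axis, log2) for the 66 other genes of the pathway by list (y axis), a point for each gene and strain, filled where called, on the values as deposited. The lowest points are Angptl4 in QSi5 (-3.37) and Acsl3 in CBA/CaH (-3.73), the transporters and binding proteins spread to both sides, and Scap, a regulator at -0.73 in QSi5 and -0.46 in CBA/CaH, turns to 0.03 and 0.19 after quantile normalization.

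By limma, 0 of the 18 probe sets were called for a strain difference at pregnancy or lactation, or for a difference in stage effect between the strains, where 1.09% of all probe sets were called at pregnancy, 0.289% at lactation and 0.104% for the stage effect. At an unadjusted p under 0.05 there were 4 at pregnancy, 1 at lactation and 3 for the stage effect. The shares of all probe sets at that threshold were 8.43%, 5.2% and 5.38%. At pregnancy the smallest adjusted p was that of Agpat1 1421025_at, with 7.89 ± 0.21 in QSi5 and 7.39 ± 0.18 in CBA/CaH glands (0.51, SE 0.12, adjusted p = 0.0712), and the strains overlapped for all 18, where they did not for 2.06% of all probe sets. At lactation 5 of 18 probe sets did not overlap between the strains, against 12.4% of all probe sets: Agpat1 1421025_at, both of Lpin1, Dgat1 1418295_s_at and Lpl 1431056_a_at, each higher in QSi5. Lactating Lpin1 differed by 1.07 (SE 0.41, adjusted p = 0.718), or by 0.54 without CBA/CaH array 1. Its stage effect was 1.48 greater in QSi5 (SE 0.51, 95% confidence interval 0.39 to 2.57, adjusted p = 0.741), or 0.95 without that array. The stage effect of Dgat1 1418295_s_at was 0.75 greater in QSi5 (SE 0.34, adjusted p = 0.917). With 3 lactating mice per strain, an adjusted p above the threshold does not show that the strains are alike.

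AIL glands at lactation stood above both parental strains for several assembly genes. Of 18 probe sets, 10 were higher and 0 lower in AIL than in QSi5, where 15.7% and 20.3% of all probe sets were, and 12 were higher and 0 lower than in CBA/CaH, where 14.7% and 17.4% were. By leading probe set, 5 of 9 were higher than in QSi5 (19.4% of all genes higher and 18.5% lower) and 6 of 9 higher than in CBA/CaH (18% and 16.2%). Both comparisons use the same 10 AIL arrays. The members' median difference was 0.43 against QSi5 and 0.73 against CBA/CaH, where that of all probe sets was -0.08 and -0.07. Under quantile normalization and under cyclic loess 4 were called higher than in QSi5 and 7 than in CBA/CaH. With the outlying arrays left out, 6 were higher and 1 lower in AIL than in QSi5, and 11 higher and 0 lower than in CBA/CaH. AIL arrays did not overlap the QSi5 arrays for 8 of 18 probe sets (22.4% of all) and the CBA/CaH arrays for 7 (20.5% of all).

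Gpat4 had the largest difference from QSi5 among the leading probe sets on the values as deposited. Its probe set 1450776_at read 10.51, 9.94, 10, 10.11 and 10.16 in AIL AQ glands and 10.39, 10.24, 10.18, 10.19 and 9.97 in AIL AC glands, against 8.85, 9.29 and 8.58 in QSi5 and 8.57, 9.08 and 8.66 in CBA/CaH. Every AIL gland was above every parental lactating gland, the nearest values being 9.94 and 9.29. The difference was 1.26 against QSi5 (SE 0.15, 2.40-fold, adjusted p = 6.97e-06) and 1.40 against CBA/CaH (SE 0.15, 2.64-fold, adjusted p = 2.27e-06). The dim probe set 1422841_at had differences of -0.27 (adjusted p = 0.164) and -0.22 (adjusted p = 0.279), not called, although with the outlying arrays left out 1422841_at was called lower than in QSi5 (-0.47, adjusted p = 0.0478). Over all 18 probe sets, 6 had all 10 AIL glands above all 6 parental lactating glands, against 6.95% of all probe sets, with 5.76% all below. They were Gpat4 1450776_at, Gpam 1425834_a_at, both of Agpat1, Dgat1 1418295_s_at and Lpl 1431056_a_at.

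Agpat1 1421025_at read 8.86, 8.77, 9.15, 9.02 and 8.85 in AIL AQ glands and 8.47, 8.54, 8.70, 8.96 and 8.99 in AIL AC glands, against 8.13 to 8.45 in QSi5 and 7.80 to 8.05 in CBA/CaH. AIL was higher by 0.58 than QSi5 (SE 0.12, adjusted p = 0.00167) and by 0.87 than CBA/CaH (SE 0.12, adjusted p = 5.38e-05), but after quantile normalization the difference from QSi5 was 0.22 (adjusted p = 0.212). Agpat1 1421024_at was higher by 1.3 than QSi5 and by 1.17 than CBA/CaH (adjusted p = 7.86e-06 and 2.43e-05). For Gpam, 1425834_a_at was higher by 1.03 than QSi5 (adjusted p = 0.00102) and by 1.18 than CBA/CaH (adjusted p = 0.00035). The leading Gpam probe set 1419499_at averaged 9.98 ± 0.12 in AQ and 9.98 ± 0.17 in AC glands, against 9.59 ± 0.24 in QSi5 and 9.51 ± 0.28 in CBA/CaH, a difference of 0.39 (adjusted p = 0.023) and 0.47 (adjusted p = 0.00947). After quantile normalization these were 0.06 (adjusted p = 0.75) and 0.16 (adjusted p = 0.374). Leaving out arrays ended these Gpam calls too: against QSi5 without its array 1 (0.34, adjusted p = 0.105) or 2 (0.30, adjusted p = 0.143), or with the outlying arrays left out (0.28, adjusted p = 0.183), and against CBA/CaH without its array 1 (0.31, adjusted p = 0.10).

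Dgat2 1422678_at read 8.98, 8.51, 9.07, 8.89 and 8.32 in AIL AQ glands and 9.14, 8.17, 9.03, 7.69 and 7.98 in AIL AC glands, against 7.50, 7.38 and 7.95 in QSi5 and 6.67, 7.57 and 6.97 in CBA/CaH. All AIL glands were above all CBA/CaH glands, and 1 AC gland at 7.69 fell within the QSi5 range. The difference was 0.97 against QSi5 (SE 0.27, adjusted p = 0.00896) and 1.51 against CBA/CaH (SE 0.27, 2.85-fold, adjusted p = 0.000353). Against QSi5 the call was lost after quantile normalization (0.67, adjusted p = 0.0805), with the outlying arrays left out (0.76, adjusted p = 0.063) and without QSi5 array 2 (0.85, adjusted p = 0.0582). Dgat1 1418295_s_at averaged 9.38 ± 0.18 in AQ and 9.34 ± 0.15 in AC glands, against 8.96 ± 0.11 in QSi5 (0.40 higher in AIL, adjusted p = 0.0171) and 8.50 ± 0.28 in CBA/CaH (0.87 higher, adjusted p = 4.78e-05). Against QSi5 the Dgat1 difference was 0.05 after quantile normalization (adjusted p = 0.792) and 0.34 without QSi5 array 2 (adjusted p = 0.0948), or 0.36 with the outlying arrays left out (adjusted p = 0.0897). Lpin1 1426516_a_at averaged 10.62 ± 0.16 in AQ and 10.95 ± 0.29 in AC glands, close to 10.90 ± 0.13 in QSi5 (-0.11, adjusted p = 0.755) and above 9.82 ± 0.92 in CBA/CaH (0.97, adjusted p = 0.00518), where array 1 read 8.75. Without that CBA/CaH array the Lpin1 difference was 0.43 (adjusted p = 0.0476), and after quantile normalization of all arrays it was 0.68 (adjusted p = 0.055). Of the dimmer probe sets, Lpin1 1418288_at was 0.60 higher in AIL than CBA/CaH (adjusted p = 0.0447), or 0.12 without that array (adjusted p = 0.587) and 0.56 with the outlying arrays left out (adjusted p = 0.0685), and Dgat2 1422677_at was 1.0 higher than QSi5 (adjusted p = 0.0108) and 0.82 higher than CBA/CaH (adjusted p = 0.0333). Dgat1 1445229_at had differences of -0.25 and -0.29, not called. Against CBA/CaH that probe set was called lower without CBA/CaH array 1 or without AIL AQ array 2.

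The uptake genes were not called against either parent by their leading probe sets. Lpl 1415904_at averaged 13.89 ± 0.04 in AQ and 13.96 ± 0.10 in AC glands, against 13.85 ± 0.09 in QSi5 (0.08, adjusted p = 0.656) and 13.68 ± 0.39 in CBA/CaH (0.24, adjusted p = 0.134, or 0.39 and an adjusted p of 0.0361 without CBA/CaH array 3). Fabp3 1416023_at averaged 14.17 ± 0.08 in AQ and 14.16 ± 0.10 in AC glands, against 13.99 ± 0.03 in QSi5 (0.18, adjusted p = 0.151) and 14.19 ± 0.19 in CBA/CaH (-0.02, adjusted p = 0.87). Fabp5 1416021_a_at differed by 0.20 from QSi5 and 0.16 from CBA/CaH, and neither was called, while its other probe set 1416022_at was 0.66 higher (adjusted p = 0.0136) and 0.63 higher (adjusted p = 0.0192). The first of these Fabp5 calls, against QSi5, ended with the outlying arrays left out (0.66, adjusted p = 0.0591). Fabp3 1444844_at had differences of 0.45 and 0.55, not called. In contrast to the leading Lpl probe set, 1431056_a_at separated AIL from both parents. It read 12.03, 12.03, 12.02, 12.0 and 12.06 in AQ and 12.08, 12.17, 12.38, 12.30 and 12.31 in AC glands, against 11.40, 11.28 and 11.41 in QSi5 and 10.82, 11.17 and 11.13 in CBA/CaH. AIL was higher by 0.78 than QSi5 (SE 0.10, adjusted p = 1.09e-05) and by 1.10 than CBA/CaH (SE 0.10, 2.14-fold, adjusted p = 2.27e-07).

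RNA measures differed between AIL and parental arrays as well. The Gapdh control probe sets of the 3′ and 5′ ends of the transcript, whose log2 difference grows as RNA is degraded or copied short, differed by 0.54 to 0.80 in AIL glands, by 1.48 to 1.62 in lactating QSi5 and by 1.12 to 2.02 in lactating CBA/CaH. With that difference as a covariate, 0 of 18 were called against QSi5 and 1 against CBA/CaH, Lpl 1431056_a_at (1.08, adjusted p = 0.0236). Over all 45037 probe sets the covariate took the calls from 16220 to 837 against QSi5 and from 14425 to 557 against CBA/CaH. Gpat4 1450776_at was then 0.70 higher than QSi5 (adjusted p = 0.235) and 0.82 higher than CBA/CaH (adjusted p = 0.198). AIL and parental arrays do not overlap in this measure, so line and RNA state cannot be told apart here. White adipocyte markers were higher in AIL as well, 6 of 9 against QSi5 and 5 of 9 against CBA/CaH, where 19.4% and 18% of all genes were, with Adipoq at 10.83 in AQ and 10.24 in AC, against 9.20 in QSi5 and 9.15 in CBA/CaH. All 6 fibroblast markers were higher in AIL than in each parent, as were 4 of 8 endothelial markers. Of 8 macrophage markers 5 were higher than in QSi5 and 6 than in CBA/CaH, and of 8 myoepithelial markers 5 and 2. Luminal epithelial markers were mixed: of 9, 3 were higher and 0 lower than in QSi5, and 2 higher and 2 lower than in CBA/CaH. For 7 B and plasma cell markers these counts were 0 and 3 against QSi5 and 2 and 1 against CBA/CaH. Among the pathway genes Agpat2 was 1.45 higher than QSi5 (adjusted p = 4.33e-05) and 1.09 higher than CBA/CaH (adjusted p = 0.000636), and Cd36 was 0.57 higher (adjusted p = 0.000102) and 0.76 higher (adjusted p = 5.86e-06). The part of these cell types in the AIL differences was not tested.

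**Figure D5:**
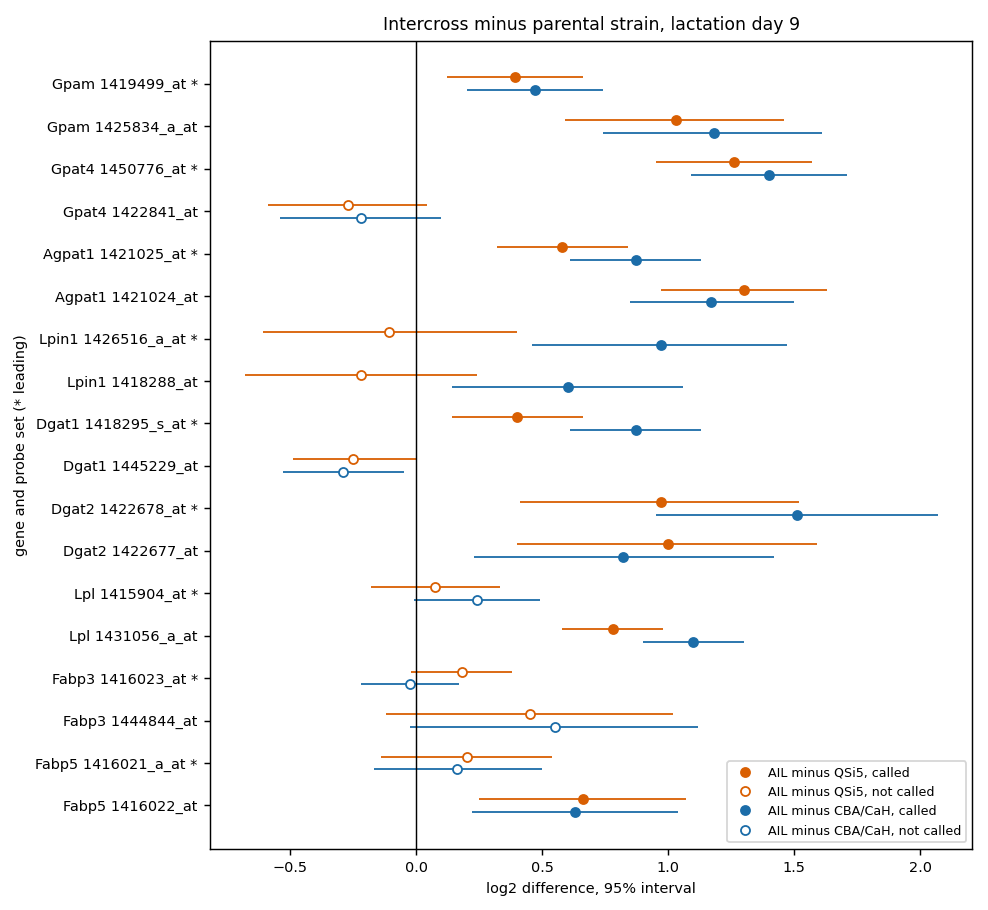
Difference between AIL and each parental strain at lactation day 9 (x axis, log2, with 95% confidence intervals) for the 18 probe sets of the 9 genes (y axis), on the values as deposited. Gpat4 1450776_at, at 1.26 against QSi5 and 1.40 against CBA/CaH, and Lpl 1431056_a_at, at 0.78 and 1.10, lie clear of 0, and Dgat1 1418295_s_at, at 0.40 against QSi5, falls to -0.01 with the Gapdh measure as a covariate.

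Between the AIL codes, limma called 0 of 18 probe sets and 0% of all 45037. At an unadjusted p under 0.05 there was 1 of 18, beside 2.86% of all probe sets. Lpl 1431056_a_at was the only member whose AQ and AC arrays did not overlap (0.626% of all probe sets), with AQ 0.22 below AC (SE 0.09, adjusted p = 1). AIL arrays 1 to 3 differed from arrays 4 and 5 in the first principal component of the lactation arrays of the line, which held 24.4% of the variance. Of the members, Fabp3 1444844_at alone did not overlap between these sets, at 7.84 to 8.44 in arrays 1 to 3 and 7.06 to 7.41 in arrays 4 and 5, where 6.92% of all probe sets did not overlap.

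Across the 26 arrays the genes whose residuals from the group means were most like each member's were found by Pearson correlation over the leading probe sets of all genes. These arrays share the tissue mixture and the arrays that stood apart, so the values describe these arrays only. Dgat2 was most like Pde3b (r = 0.96), Aldh1a7 (0.95) and Rbp4 (0.94), and over the 20 arrays without those that stood apart it was most like Pde3b (0.96) and Cidec (0.95). Fabp3 was most like the milk protein gene Wap (0.89 over 26 arrays), and over 20 arrays like Glycam1 (0.94), 1110008P14Rik (0.91) and Csn1s2b (0.88). Glycam1 and Csn1s2b are expressed in milk-secreting cells. The 26 and the 20 arrays both include CBA/CaH pregnancy array 2, with Fabp3 at 13.31 and Dgat2 at 6.67. The other arrays of its group read 11.43 to 11.80 for Fabp3 and 9.13 to 11.04 for Dgat2. Correlations of Fabp3 and Dgat2 without this pregnancy array were not computed. Lpin1 and Lpl were each other's neighbours over 20 arrays (0.84), each with Thrsp first (0.93 for Lpin1 and 0.86 for Lpl). Those 20 arrays include lactating CBA/CaH array 1, the lowest of its group in Lpin1 (8.75), Lpl (13.24) and Thrsp (11.95). Correlations without that array were not computed. In contrast, over 26 arrays Lpin1 was most like Crygf (0.69) and Lpl like Polr2i (0.82). Gpam was most like Cmc2, Cox17 and Bscl2 (each 0.90 over 26 arrays) and, over 20, like Pdhx (0.85). Over 26 arrays Gpat4 was most like Acp6 (0.82), Agpat1 like Dalir (0.81), Dgat1 like Fcor and Idh1 (each 0.83) and Fabp5 like Adap1 (0.81). Over 20 arrays other genes came first: Uevld (0.77) for Gpat4, Rab26os and Chrd (each 0.80) for Agpat1, Lrig3 (0.84) for Dgat1 and Itpripl1 (0.89) for Fabp5.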

How the data were processed

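RNA of the inguinal mammary gland of 26 mice was labelled with biotin from 5 ug each and read on Affymetrix mouse expression arrays, per the labels' protocols. The deposited log2 values per probe set were made by the authors with RMA, per the submitters' processing notes. Its version, the chip definition and whether all arrays were processed together are not given in the sources used here. Values ran from 2.34 to 15.13, with array medians from 5.0 to 5.3, and entered the tests without rescaling.

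The table holds 45101 probe sets, of which 64 are Affymetrix controls and 45037 were tested. Of the 45037 tested probe sets, the platform annotation gives 34945 a single symbol and 932 several, and probe sets with several symbols are not named. Names ending in _s_at mark a probe set that can detect related transcripts, and Dgat1 1418295_s_at is 1 of these. Groups came from the labels. Tests used limma 3.58.1 under R 4.3.3 (functions lmFit and eBayes). The fit for stage, strain and interaction held the 16 parental arrays, and that for AIL the 16 arrays of lactation, with Benjamini-Hochberg adjustment over all tested probe sets and calls at an adjusted p under 0.05. The fits were tested on simulated data. Tables used pandas 2.3.3 and figures matplotlib 3.10.9.

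The members and all gene lists were chosen with earlier results of these data known. Named pathway genes followed a rule: from each list up to 4 genes called in both strains, or in either where fewer were, with the largest mean absolute stage difference, up to 2 not called, and a set of genes whatever their result. Some list genes, Acsl1, Gk, Slc27a6 and Nr1h2 among them, and the adipocyte markers Plin1, Cfd and Adrb3, are not analysed here. Alternatives were a filter at a mean of 5, an intensity trend with a robust prior, quantile normalization, cyclic loess, equal array medians, other arrays in the fit, array weights, the Gapdh measure as a covariate, the mean of a gene's probe sets, a replicate block, and each array left out in turn.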

Additional observations from a re-analysis of the deposited data

Results flagged for a closer look

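In groups of 5 arrays, a probe set of the members whose highest or lowest array lay far from the rest by Dixon's criterion is given here. Of 72 combinations of probe set and group tested, 5 met the criterion, and chance gives about 1 in 20. By leading probe set, Gpam read 11.74 in pregnant CBA/CaH array 5, where the others read 10.66 to 10.75, and this array stood apart by brown adipocyte markers. Gpam read 11.32 in pregnant QSi5 array 4, where the others read 10.09 to 10.39. Lpl read 13.12 in the same array, where the others read 12.61 to 12.74, and this array had a Gapdh 3′ minus 5′ difference of 6.5. Gpat4 read 8.98 in pregnant CBA/CaH array 4, where the others read 8.61 to 8.70. Fabp3 read 13.31 in pregnant CBA/CaH array 2, where the others read 11.43 to 11.80, and this array had the lowest white adipocyte markers of its group (-1.14, against 0.86 to 2.52 in the others).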

How the results depend on the processing

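Over the 9 members, 3035 of 3250 recomputed values kept direction and side of the threshold, 168 lost a call, 44 gained one and 3 reversed. Of 1868 values of pathway genes these were 1703, 93, 64 and 8. Lpl and Fabp3 by leading probe set, Lpin1 in QSi5 and Agpat1 in CBA/CaH kept their stage call under every setting run. In CBA/CaH the dimmer probe sets Dgat1 1445229_at and Fabp3 1444844_at also kept their calls as higher under every setting run. The leading Dgat1 probe set kept its CBA/CaH call as lower in 8 of 12 settings, single arrays left out not counted. Where a call was lost and no cause is named, the cause was not tested.

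Reversed values came mostly from scaling. At lactation against pregnancy, Dgat1 turned to 0.74 in QSi5 under quantile normalization, and to 0.088 in CBA/CaH with the mean of its probe sets, which disagree. Scap turned to 0.033 and 0.0034 in QSi5 and to 0.19 and 0.18 in CBA/CaH under quantile normalization and cyclic loess. Acsl5 turned to 0.083 and 0.058 in QSi5, and Got2, not called as deposited (-0.088), to 0.52 and 0.53 in CBA/CaH (adjusted p = 0.0244 and 0.0256). Dgat1 in AIL against QSi5 was -0.0069 with the Gapdh covariate.

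Members called in AIL against QSi5 numbered 4 under quantile normalization, cyclic loess and all arrays in 1 fit, and 0 with the Gapdh covariate (10 as reported). Against CBA/CaH they numbered 7, 7, 7 and 1 (12 as reported). With AIL arrays 1 to 3 alone they were 9 and 11, and with arrays 4 and 5 alone 7 and 8. For strain at pregnancy 1 was called (Agpat1) with equal medians, with all arrays in 1 fit and with the Gapdh covariate. Leaving out 1 array gave 9 to 13 for stage in QSi5, 10 to 14 for stage in CBA/CaH, 6 to 10 for AIL against QSi5 (6 without QSi5 array 2), 9 to 13 for AIL against CBA/CaH and 0 to 1 for strain at pregnancy (1 without QSi5 array 1).

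Deviations of same-numbered arrays correlated between -0.43 and 0.12 for the stage and strain comparisons, and between 0.01 and 0.32 for AQ against AC. In the AIL arrays the numbers went with the split of arrays 1 to 3 from arrays 4 and 5, in both codes. With the replicate block the members called were 11 for stage in QSi5, 10 for stage in CBA/CaH, 9 and 12 for AIL against QSi5 and CBA/CaH, and 0 for strain, interaction and AQ against AC.

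Over all probe sets, a filter at a mean of 5 left fewer to test. Calls for stage went from 26596 to 15778 in QSi5 and from 23849 to 14373 in CBA/CaH. For AIL against QSi5 they went from 16220 to 10690. With the Gapdh covariate 837 were called against QSi5 and 557 against CBA/CaH. Against CBA/CaH 14425 were called as reported, and leaving out 1 array gave as few as 9481. Strain at pregnancy (492) gave 306 with only its groups, 852 with all arrays, 928 with the Gapdh covariate and 1579 with array weights, and 372 to 894 with 1 array left out. Strain at lactation (130) gave 218 under quantile normalization, 216 with the covariate and 227 with weights, and 83 to 95 with 1 array left out. The interaction (47) gave 80, 84 and 152 with all arrays, the covariate and weights, and 25 to 84 with 1 array left out. AQ against AC gave 0, and 0 to 3 with 1 array left out.

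Depth is limited by 3 lactating mice per parental strain. Dim probe sets such as Gpat4 1422841_at lie near the low end of the table, and the top probe sets of Lpl and Fabp3 near its high end. Whether differences are compressed at either end was not tested.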

Other observations

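Lactating CBA/CaH array 1 differed from the other two glands of its group in several lipid genes, a pattern chosen after the values were seen. The lipase inhibitor Angptl4 read 11.27 there, against 5.63 and 6.19 in the others, a level like that of pregnant CBA/CaH glands (9.92 to 11.11). The lipogenic regulator Srebf1 read 8.63, against 10.52 and 10.64, and Thrsp 11.95, against 13.27 and 13.21. Among the members Lpin1 read 8.75, against 10.32 and 10.39, Lpl 13.24, against 13.83 and 13.98, and Gpam 9.19, against 9.74 and 9.60. Fabp3 was high in all 3 glands, at 13.98, 14.24 and 14.35, as was Cd36, at 12.05, 12.07 and 12.13. The white adipocyte markers of this gland (-0.70) were the highest of its group, the others reading -0.87 and -1.15, and its luminal epithelial markers read 0.07, against -0.95 and -0.93. The labels give no feeding state or time of collection for any mouse.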
